A study of Drosophila melanogaster with 6 samples.

Results

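The quaking-related STAR genes encode RNA-binding proteins with a single KH domain, and 6 of them were looked up by gene symbol in the array's annotation: qkr58E-1, qkr58E-2, qkr58E-3, qkr54B, how and nsr. Of these 6 genes, 5 had at least 1 probe set that carried their symbol alone, which gave 6 of the 13966 probe sets tested and 5 of the 10844 genes measured. No probe set in the annotation used here carried the symbol how, so how, the member known from germline stem cells, was not analysed here. RNA was measured on 1-colour Drosophila oligonucleotide arrays in 3 samples of germline stem cells (GSC 1 to 3), purified from ovaries of bam mutants, and in 3 samples of Kc cells (Kc 1 to 3), an established line grown in culture and derived from embryos. In bam mutants the germ cells do not differentiate and stem-cell-like cells accumulate; the allele, the age and the number of animals are not given in the labels, and Kc cells are the only baseline. Samples from ovaries overexpressing Dpp, named in the design, were not analysed here.

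STAR proteins ("signal transduction and activation of RNA") bind short RNA motifs, usually as dimers, through a KH domain flanked by conserved QUA regions. They act on splicing, export, stability and translation of their target RNAs, and mammalian Quaking and Sam68 and the nematode germline protein GLD-1 belong to the family. In the fly, how works in muscle, tendon and glia and in the male germline, qkr58E-3 (also named kep1) is known for female fertility and for the splicing of the caspase gene Dredd, and nsr is a young duplicate needed in spermatogenesis, where it acts on transcripts of Y-linked fertility genes. The genes qkr58E-1, qkr58E-2 and qkr54B are less well known.

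The labelled cell types carried their defining markers. All 7 germline markers measured rose in GSC, with summed signals of 31339 to 33882 over the GSC arrays against 335.8 to 418.6 over the Kc arrays, and all 6 hemocyte and matrix markers of Kc cells were lower in GSC. The 3′ to 5′ ratio of the actin control transcript, a measure of how far labelling reached along the RNA, averaged 4.58 ± 0.313 for GSC and 1.85 ± 0.0789 for Kc (SD over 3 arrays each). It was also higher on every GSC array than on every Kc array for GAPDH and eIF-4a (exact permutation test, two-sided p = 0.1 for each of the 3 transcripts, the smallest that 3 against 3 arrays can give). These ratios move with the groups in every comparison here, and their part in the results was not tested.

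Among the STAR genes, qkr58E-3 rose in GSC, and no other member passed the test in either direction. A probe set was called where limma's adjusted p, over all 13966 probe sets, was under 0.05 and the fold was at least 2. This called 1 of the 6 member probe sets (16.7%), beside 19.8% of all probe sets called in either direction, 11.7% called higher and 8.11% called lower, so the share called in the family was near the background. The members went in opposite directions: log2 folds were above 0 for the qkr58E-3 probe set and the pair of nsr probe sets and below 0 for qkr58E-1, qkr58E-2 and qkr54B. Signals of the groups did not overlap for any of the 6 probe sets, beside 45.4% of all probe sets without overlap, and 5 of the 6 had an adjusted p under 0.05, beside 34.5% of all probe sets. The median log2 fold was 0.16 over the 6 probe sets and 0.025 over all probe sets. In these bulk samples, fewer cells of a type and less RNA per cell cannot be told apart.

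**Figure D1:**
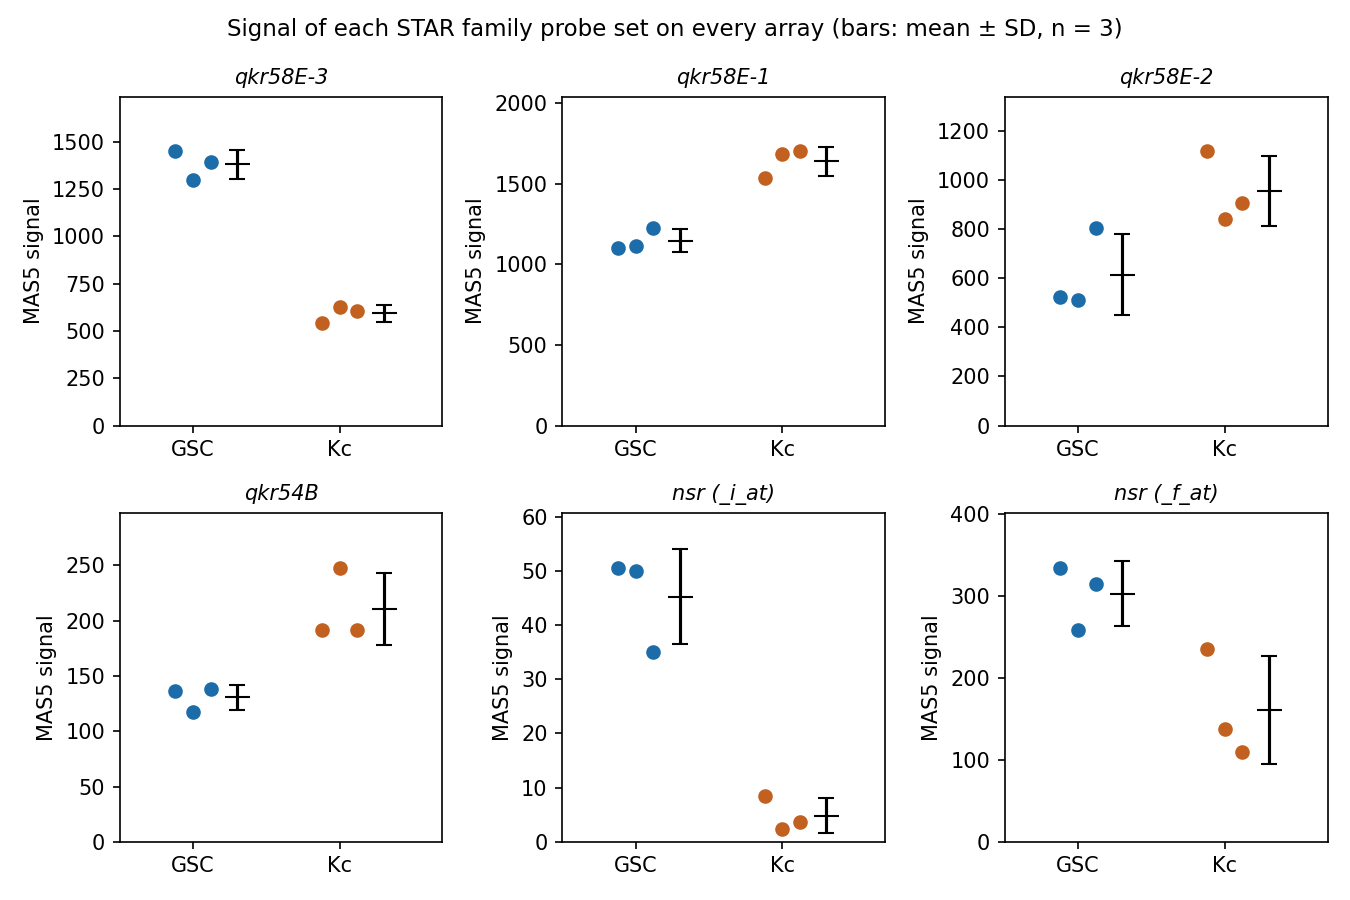
Deposited MAS5 signal (linear scale, from 0) of each member probe set on the 3 GSC arrays (blue) and the 3 Kc arrays (orange), with the mean and SD of each group in black. The groups are separate in every panel: GSC lies above Kc for qkr58E-3 (1297.4 to 1448.9 against 543.5 to 627.2) and for nsr, and below Kc for qkr58E-1, qkr58E-2 and qkr54B.

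The fertility and splicing gene qkr58E-3 had signals of 1448.9, 1297.4 and 1394.5 on GSC 1 to 3 and of 543.5, 627.2 and 607.3 on Kc 1 to 3. The lowest GSC array was thus more than 2-fold above the highest Kc array, and the spread within each group was small beside the gap. The GSC mean of 1380 ± 76.7 was 2.33 times the Kc mean of 592.7 ± 43.7 (SD, n = 3 each). On the log2(signal + 38) scale, where folds of dim probe sets come out too small, it was higher by 1.17 ± 0.122 (SE, 95% interval 0.90 to 1.44, limma adjusted p = 4.87e-05). The call was made under each of the 15 alternative settings of scaling, pseudocount, filter, variance prior, replicate block and left-out array, with log2 folds between 1.03 and 1.60.

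Its neighbour qkr58E-1, a Sam68 relative, gave signals of 1100.8, 1114.5 and 1227.2 on GSC 1 to 3 and of 1533, 1680.8 and 1700 on Kc 1 to 3. Every GSC array was below every Kc array, by a modest margin. The log2 fold was -0.50 ± 0.111 (SE, 95% interval -0.75 to -0.25, limma adjusted p = 0.0056), under the fold minimum, so it was not called. The next gene, qkr58E-2, had 524.9, 510.9 and 803.9 in GSC and 1115.3, 841.2 and 905.4 in Kc. GSC 3 stood close to Kc 2, while the other GSC arrays were well below all Kc arrays. Its log2 fold of -0.63 ± 0.191 (SE, limma adjusted p = 0.0295) was also under the fold minimum. Leaving out single arrays moved it between -0.51 and -0.83, and the adjusted p was over 0.05 without GSC 1 (0.102), GSC 2 (0.113), Kc 1 (0.0925) or Kc 3 (0.0628).

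The member qkr54B, which lies elsewhere on the same chromosome arm, had signals of 136.5, 117.5 and 137.9 in GSC and 191.3, 247.8 and 191.3 in Kc. The GSC arrays were all lower, but the log2 fold of -0.55 ± 0.227 (SE, 95% interval -1.06 to -0.042) had a limma adjusted p of 0.0932 and was not called. The sizes for qkr58E-1, qkr58E-2 and qkr54B depend on how arrays are scaled to each other. With arrays scaled to the 9 hybridisation controls, the log2 folds of the 3 genes came to -0.059, -0.20 and -0.18 (adjusted p = 0.908, 0.682 and 0.778), while that of qkr58E-3 came to 1.60. Under that scaling the median over all probe sets went from 0.025 to 0.32 in log2 fold, and 80.4% of its calls were higher in GSC, against 59.1% with the deposited scaling. Relative to these medians the folds were -0.53 and -0.38 for qkr58E-1, -0.65 and -0.51 for qkr58E-2, -0.58 and -0.50 for qkr54B, and 1.14 and 1.28 for qkr58E-3, the deposited scaling first in each case.

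The testis gene nsr had a pair of probe sets, and neither was called. By Affymetrix's naming, the suffix _i marks a set with fewer unique probes than the design asks for, and _f a set whose probes can match a family of similar sequences. The _i set had signals of 50.6, 49.9 and 35.1 in GSC and of 8.5, 2.4 and 3.6 in Kc. All values were near or under 38, the 25th percentile of all deposited signals, and no detection call was used, so it is not known which of these values stand above background. The log2 fold of 0.95 ± 0.181 (SE, limma adjusted p = 0.00227) lay just under the minimum and was set by the pseudocount: it was 3.11 with a pseudocount of 1, 0.31 with the pseudocount at the median of all values, and 0.27 with a floor at 38.

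The _f set had 334.8, 258.4 and 315.2 in GSC and 235.6, 138 and 109.9 in Kc. Kc 1 came close to GSC 2, and the other Kc arrays were far lower. The log2 fold was 0.82 ± 0.263 (SE, limma adjusted p = 0.0371), under the minimum. Both sets were called without Kc 1 (log2 folds 1.02 for the _i and 1.07 for the _f set) and with scaling to the hybridisation controls (1.13 and 1.21), and the _i set also without GSC 3 (1.05) and with a pseudocount of 1. In the other direction, the adjusted p of the _f set was over 0.05 without any 1 of the other 5 arrays (0.0596 to 0.118), with quantile normalization (0.0789), with scaling to the median (0.0574) and with a floor at 38 (0.0983). How far these probes tell nsr from its close relatives was not tested.

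**Figure D2:**
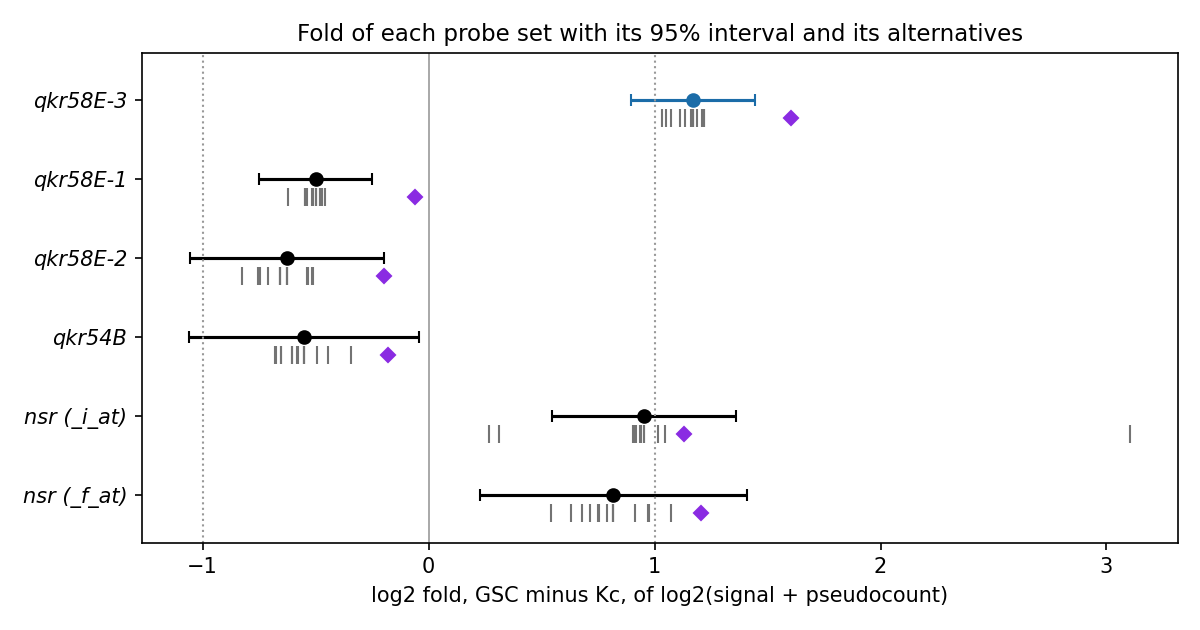
Log2 fold (GSC minus Kc) of each member probe set with its 95% interval from limma (circles; blue where called), above the values under the alternatives (grey ticks) and with scaling to the hybridisation controls (purple diamonds); dotted lines mark the fold minimum of 2. Only the interval of qkr58E-3 has its circle beyond a dotted line, and the nsr _i_at tick at 3.11 is the pseudocount of 1.

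The difference between members was looked at array by array, in a comparison chosen after the values were seen. For each of the 15 pairs of member probe sets, the log2 difference between the members was taken on every array and compared between groups, which cancels any scaling of a whole array apart from the pseudocount. The log2 fold of qkr58E-1 minus that of qkr58E-3 was -1.67 ± 0.067 (SE, n = 3 arrays a group), that of qkr58E-2 minus qkr58E-3 was -1.80 ± 0.263, and that of qkr58E-3 minus qkr54B was 1.72 ± 0.0827. In 9 of the 15 pairs the difference did not overlap between groups, and these were the pairs that set qkr58E-3 or nsr against qkr58E-1, qkr58E-2 or qkr54B. Each had an exact two-sided permutation p of 0.1, the smallest possible, and an adjusted p of 0.167 over the 15 pairs, so none could pass 0.05 in this design. All 9 pairs set a probe set that was higher on every GSC array against one that was lower on every GSC array. Their separation and their p thus follow from the signals of the single members and are no further evidence. The other 6 pairs overlapped: qkr58E-1 minus qkr58E-2 was 0.13 ± 0.222 (exact permutation p = 0.5), and the _i minus the _f set of nsr was 0.14 ± 0.26 (exact permutation p = 0.6).

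All 5 measured members lie on chromosome arm 2R, and how on 3R, in the RefSeq gene table of the fly assembly Release 6 plus ISO1 MT. There qkr58E-3, qkr58E-1 and qkr58E-2 follow each other with 1 protein-coding gene, PolE4, between qkr58E-3 and qkr58E-1 and 0 between qkr58E-1 and qkr58E-2. PolE4, which encodes a small subunit of DNA polymerase epsilon and is named here only for its place, had 873 ± 24.8 on the GSC arrays against 319.2 ± 45.1 on those of Kc (SD over 3 arrays); its log2 fold was 1.36 (limma adjusted p = 6.42e-05). The next gene but 1 on the outer side of qkr58E-3, CG6044, also rose (1.56, adjusted p = 0.00328), although not with the pseudocount at the median (0.74). On the far side of qkr58E-2 lie the mitochondrial ribosomal protein gene mRpS29 and the DNA repair gene rad50. Their folds were positive (0.81 and 0.61, limma adjusted p = 0.00255 and 0.00902) but under the fold minimum, so they were not called. Along the cluster the positive folds of qkr58E-3 and PolE4 thus gave way to the negative folds of qkr58E-1 and qkr58E-2 between adjacent genes. From mRpS29 on the folds were positive again. By extent, qkr58E-3 overlaps VepD, qkr58E-1 overlaps PolE4, qkr58E-2 overlaps mRpS29 and an antisense RNA, and nsr overlaps Cyp6d2. Where the probes lie within these genes is not given in the sources used here, so signal from overlapping transcripts cannot be told apart.

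**Figure D3:**
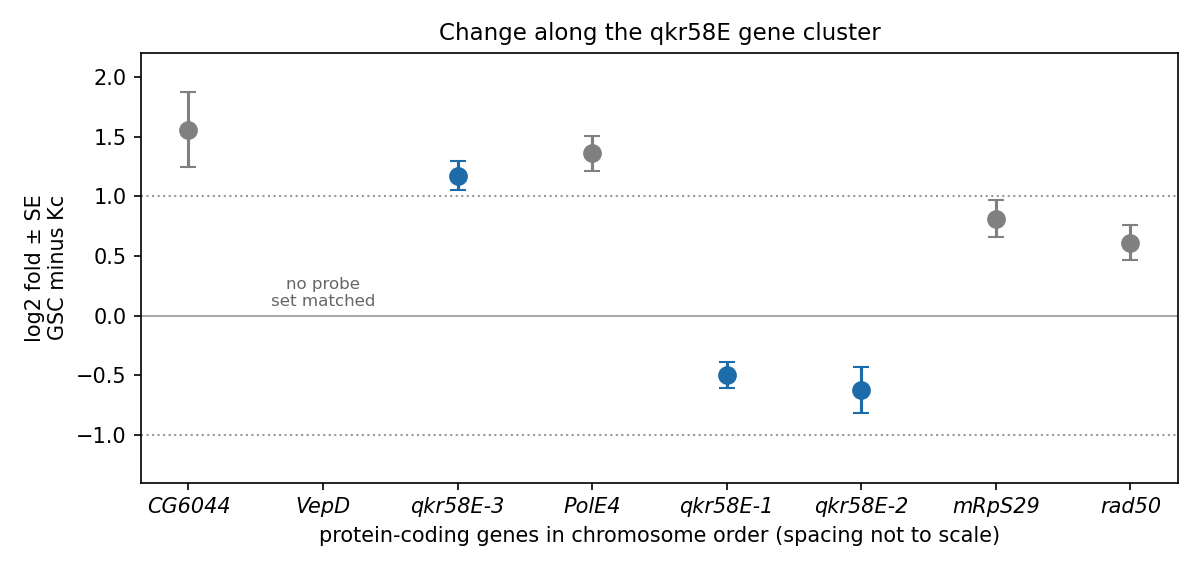
Log2 fold (GSC minus Kc) with its SE for the protein-coding genes along the qkr58E cluster in chromosome order, with evenly spaced positions; STAR genes are blue, other genes grey, and dotted lines mark the fold minimum of 2. The values stand at 1.17 for qkr58E-3 and 1.36 for PolE4 and at -0.50 and -0.63 for the next genes, qkr58E-1 and qkr58E-2.

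Further genes of the family stayed under the threshold. The list of further STAR genes named kep1 and CG3875 as well, which the gene table gives as older names of qkr58E-3 and nsr and which were therefore left out. Of the 4 that remained, 0 rose and 0 fell by limma's adjusted p and the fold minimum, beside 12.5% of all genes higher, 8.02% lower and 20.5% in either direction; 1 of the 4, SF1, passed when the fold minimum was dropped. SF1, the branch-point binding protein of the spliceosome, averaged 997.3 ± 83.9 on GSC arrays against 754.6 ± 75.9 on Kc arrays, a log2 fold of 0.39 ± 0.133 (SE, adjusted p = 0.0472). CG10384, CG4021 and CG3927 had mean signals between 11.6 and 47.9 in both groups, and their groups overlapped. These means lie near or under 38, the 25th percentile of all values, where folds come out too small. The lack of a call thus does not show that these genes were unchanged. The probe set of CG3927, a relative of nsr in the same stretch of 2R, is also of the _f type, and its log2 fold was 0.52 ± 0.271 (adjusted p = 0.185).

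Other KH domain genes changed in both directions. Among 14 measured genes 3 rose and 4 fell, beside 12.5% of all genes higher and 8.02% lower. The other 7 were not called, and the median log2 fold was -0.62 beside 0.043 over all genes. The list shares no gene with the members. The fragile X counterpart Fmr1, a translational repressor, had 242.1, 228.8 and 212.7 in GSC against 1462.9, 1310.1 and 1284.3 in Kc, a log2 fold of -2.39 (adjusted p = 9.97e-07). In the other direction, spoon, an anchoring protein of protein kinase A, had 3591.8, 2585.2 and 2520.5 against 716.6, 1124.7 and 942.5 (1.61). The splicing regulator gene mub (1.54) and papi (1.52), which encodes a KH and Tudor protein of piRNA maturation, rose as well. Dp1 (-1.18), Psi (-1.10) and l(1)G0004 (-1.001), named after their values were seen, were the other 3 that fell. All of these 3 calls were lost with scaling to the hybridisation controls, those of Psi and l(1)G0004 also without GSC 1 (leaving 2 of the 4), without Kc 3 and, for l(1)G0004, without Kc 1. The Nova counterpart ps has 4 probe sets that disagree: the one with the highest mean was not called (-0.72), 2 others fell (-2.84 and -1.44) and 1 was not called (-0.14).

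RNAs and partners linked to how were measured although how was not. Of 6 measured, 1 rose and 1 fell, beside 12.5% of all genes higher and 8.02% lower. The splicing factor gene crn, whose protein acts with HOW in glial splicing, had 1082, 919.3 and 1078.7 in GSC and 564.1, 478.9 and 411.1 in Kc. Its log2 fold of 1.03 ± 0.152 (adjusted p = 0.000475) was just over the minimum, and the call was lost under 6 of 15 alternatives, among them quantile normalization, scaling to the median, and leaving out GSC 1, GSC 3 or Kc 3. The differentiation gene bam, whose RNA is bound by HOW in the male germline, had 87, 33.8 and 29.2 in GSC and 885, 587.7 and 853.7 in Kc (-3.25). It is the gene mutated in the GSC samples, and neither an ovary with intact bam nor the position of the probes is given here, so this level is no check of the labels. CycB (0.38 ± 0.0961), Nrx-IV (0.40 ± 0.23), sr (0.43 ± 0.395) and dpp (-0.20 ± 0.369) were not called. Dredd, the caspase gene tied to qkr58E-3 through splicing, averaged 717.5 ± 120.7 over GSC arrays and 519.7 ± 257.2 over Kc arrays and was not called (log2 fold 0.52 ± 0.28, adjusted p = 0.202); a single signal for the gene does not separate its splice forms.

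Among regulators of splicing, 3 of the 19 measured genes rose, 1 fell and 15 were not called, so that 4 of 19 were called beside 20.5% of all genes. With no fold minimum 11 were higher and 4 lower, beside 34.5% of all probe sets in either direction. The groups did not overlap in 16 of the 19, beside 45.4% of all probe sets. The median log2 fold was 0.50, beside 0.043 over all genes. Rbp9, a neuronal and ovarian ELAV-type protein, rose (2.93, although its second probe set was at -0.52 and not called), as did the spliceosomal helicase gene pea (1.39) and fl(2)d (1.05), a partner in Sxl splicing. The fl(2)d call was lost under 5 of 15 alternatives, without GSC 1 and without Kc 3 among them. The hnRNP gene Hrb98DE fell (-1.58 ± 0.0889, adjusted p = 9.1e-07). With scaling to the hybridisation controls 7 of the 19 rose, beside 2810 of all 13966 probe sets.

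Germline translational regulators, which like GLD-1 act on RNA in the germline, held 6 genes of 9 measured that rose, beside 12.5% of all genes higher. In this list 0 fell, and the median log2 fold was 2.13. Of the 6, 4 are nanos (7.14), orb (5.66), Rbfox1 (2.62) and stau (2.42). Each of these 4 has a second probe set, which also rose for nanos (2.28), orb (1.58) and stau (2.64). That of Rbfox1 (0.61, limma adjusted p = 0.0822) was not called. This list was written with the earlier result for nanos and orb known, so its direction is not independent evidence. The 3 not called were pum (0.95), bgcn (0.60) and twin (-0.073). The difference between this list and the STAR genes was not tested.

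**Figure D4:**
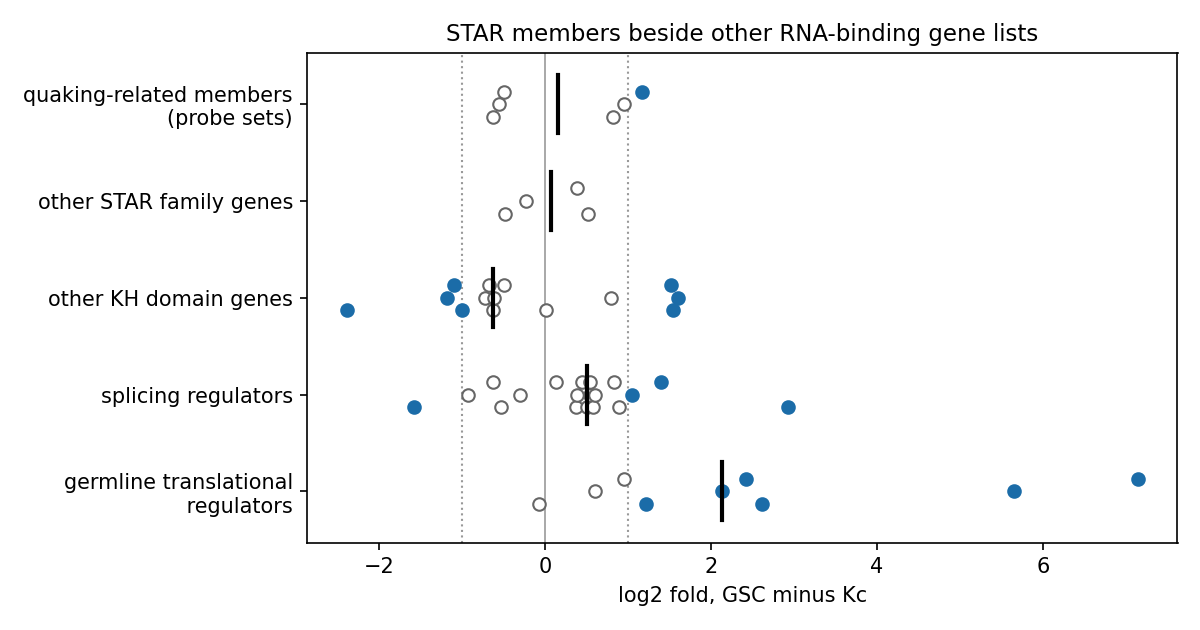
Log2 folds (GSC minus Kc) of the 6 member probe sets and of the genes of 4 other lists, filled blue where called and open where not, with black bars at the medians; dotted lines mark the fold minimum of 2. The members lie between -0.63 and 1.17 around a median of 0.16, and the germline translational regulators reach 7.14 around a median of 2.13.

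Markers of cells in which STAR genes are known were read beside these values. Over all genes 12.5% were called higher and 8.02% lower, the background for each count below. Of 10 spermatocyte genes, 3 rose, 0 fell and 7 were not called. The summed signal of the 10 was 2273 to 2437 over the GSC arrays, beside 1062 to 1245 for Kc. This sum leans on bol, which alone averaged 1169 on GSC arrays and 175.2 on Kc arrays, so it does not show a rise across the list. The genes that rose were bol (2.50, with a second probe set at 0.12 and not called), twe (1.74) and aly (1.18), and the aly call was lost without GSC 2, GSC 3 or Kc 2; can, sa, nht, comr and dj had GSC means between 10.9 and 42.6, and mia (-0.79, limma adjusted p = 0.00497, under the fold minimum) and topi (0.36) were not called. The GSC samples were purified from ovaries, so these signals cannot be read as a share of spermatocytes. Their relation to the nsr values was not tested. The 7 Y-linked fertility genes tied to nsr had no probe set matched here. Of 7 muscle genes 0 rose and 0 fell. Of 5 tendon genes 1 rose, alien (1.45), and 4 were not called. Of these 4, shot was at -0.87, and the groups overlapped for sr, Tsp and tx. Of 6 glial genes 1 rose, repo, a call lost under 12 of 15 alternatives, among them leaving out any array but Kc 3. Another 2 glial genes fell, nrv2 and loco, and the second probe set of loco rose by 1.02. Of 7 genes of ovarian somatic cells 0 rose and 1 fell.

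The genes whose profile was most like that of qkr58E-3, the 1 called member, were found by the smallest Euclidean distance between log2 values over the 6 arrays, each profile centred on its own mean, among 10843 other genes. They were Wdr37 (distance 0.104, Pearson r = 0.999), SrpRalpha, a subunit of the receptor for the signal recognition particle (0.134, r = 0.996), and Mad1, a spindle checkpoint gene (0.137, r = 0.998). Their log2 folds were 1.11, 1.18 and 1.09. With 3 arrays in each of 2 groups such a likeness rests mainly on the group difference, and the coefficients describe these arrays only.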

How the data were processed

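RNA of 3 GSC and 3 Kc samples was measured on 6 arrays. The authors deposited linear intensity values, 1 for each probe set on each array, and the submitters' processing notes name MAS5 without a version. The mean after trimming 2% at each end was close to 500.1 on every array, so no further scaling was applied. Of 14010 probe sets, 44 array controls were left out. The annotation gave 1 gene symbol for 12443 of the others, and 12394 were matched by gene identifier to RefSeq; a list gene took the values of its brightest probe set by mean log2. GSC and Kc were compared on log2(signal + 38), 38 being the 25th percentile of all values, with lmFit and eBayes (trend and robust) of limma 3.58.1 in R 4.3.3, two-sided, with Benjamini-Hochberg adjustment over all 13966 probe sets. The fit was tested on simulated data. The labels do not say whether replicates were separate cultures or dissections, so p-values cover only the spread between these samples, possibly technical. The number of arrays limits the precision. Same-numbered arrays did not deviate together (r from -0.0296 to 0.0364), and the main fit did not pair them. Whether same-numbered samples were handled together is not given in the labels. Members and lists were chosen with earlier results of these data known. The text names all members, up to 4 called genes a list with the largest folds, the largest against its majority, and fixed key genes; others are said to be chosen later. No sequence tables were used here, so no sequence is shown.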

Additional observations from a re-analysis of the deposited data

How the results depend on the processing

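The qkr58E-3 call held under every scaling, pseudocount, filter, variance and left-out-array setting and was lost with a fold minimum of 3 (log2 fold 1.17). The nsr _i set passed with a pseudocount of 1 (3.11) and with scaling to the hybridisation controls (1.13), and ranged from 0.91 to 1.05 without single arrays; the filter on dim probe sets removed it. The nsr _f set passed with that scaling (1.21) and ranged from 0.63 to 1.07. Why these calls moved was not tested. With a fold minimum of 1.5, qkr58E-2 (-0.63) and both nsr sets (0.95 and 0.82) also passed, making 4 member probe sets (3 higher, 1 lower), and with no minimum qkr58E-1 (-0.50) too, making 5 (3 higher, 2 lower); it was 0 with a minimum of 3. The count of called members was 2 with a pseudocount of 1, 3 with hybridisation control scaling, and 1 to 3 without single arrays, all higher. Over all 13966 probe sets the count was 2765. It was 3091 with a pseudocount of 1, 3495 (2810 higher) with hybridisation control scaling, and 2657 to 2757 without single arrays. It was 1690 with the pseudocount at the median, 4813 with no fold minimum, 4267 with 1.5 and 1247 with 3. Over the 5 RNA-binding lists 39 genes passed with no minimum, 30 with 1.5 and 9 with 3. The replicate block kept the qkr58E-3 fold at 1.17 (adjusted p = 0.000818), changed no member's call, and called 2739 probe sets. Signals near 38 have no stated background to be set against.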
